A study of Mus musculus with 6 samples.

Results

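The genes described here are 34 genes of cholesterol and fatty acid synthesis, out of 32285 genes counted, followed across 4 single-cell RNA libraries (scRNAseq) of mouse CD8 T cells. They fall into 5 step groups: 8 genes of the mevalonate steps, 10 of the sterol steps, 6 regulators, 8 of the fatty acid steps and 2 exporters of cholesterol. All 34 symbols were found in the gene tables. The list was drawn up with earlier results of these libraries known, so every value below is a description of the members and none is offered as independent evidence about them.

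Control mice were C57Bl6 animals carrying CD8-Cre and Rosa26Tomato. CD8-IFNγRKO mice carried CD8-Cre, Rosa26Tomato and IFNgR1flox/flox, so that Cre and the Tomato reporter were common to both genotypes and the floxed receptor gene alone set them apart by label. The Cre transgene is driven by a CD8α promoter and deletes *Ifngr1*, the ligand-binding chain of the interferon-γ receptor, in mature CD8 T cells. All mice bore B16-OVA, a melanoma line that makes ovalbumin, and 12 days after engraftment the cells positive for CD45, CD3, CD8 and Tomato were taken by sorting from the tumor and the draining lymph node (LN). Each of the 4 combinations of tissue and genotype was 1 library of 3 pooled mice, so no group had a replicate library and no test between groups was possible. Intervals below are exact 95% intervals for counting error only and do not hold the spread between mice.

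After filtering, 6640 to 8620 cells were kept per library, with 28841136 to 93745258 UMIs (unique molecules) in all. The median was 9395.5 UMIs per cell in the CD8-IFNγRKO tumor, 6283.5 in the control tumor, 3863 in the CD8-IFNγRKO LN and 4051 in the control LN. Levels are given as CPM, the UMIs of a gene per 1000000 UMIs of all genes in the pooled cells of a library. *Ifngr1* stood at 238 CPM in the CD8-IFNγRKO tumor against 720 in the control tumor, and at 137 against 182 CPM in LN, so transcript of the targeted gene was still counted in both libraries labelled CD8-IFNγRKO. Between 51 and 81 cell barcodes were shared by any pair of libraries, at most 1.22% of the smaller library. The 6 CD8 T cell markers were all detected and summed to 4917 to 8140 CPM, while the summed CPM over the 4 libraries was 4.92 to 19.7 for CD4 T cell markers, 0.426 to 22.2 for B cell, 0.238 to 0.555 for NK cell, 4.43 to 49.7 for fibroblast and endothelial and 0 to 1.94 for erythroid markers. Of the fibroblast and endothelial sum, *Pecam1* alone gave 48.3 of 48.5 CPM in the CD8-IFNγRKO LN and 49.6 of 49.7 CPM in the control LN.

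Cholesterol is built from acetyl-CoA in a chain of reactions that runs through mevalonate and farnesyl diphosphate to squalene, and then through sterol intermediates to cholesterol itself. The transcription factor SREBP2 (encoded by *Srebf2*) and, for fatty acids, SREBP1 (*Srebf1*) switch these genes on when sterols in the endoplasmic reticulum are scarce, because the escort protein Scap is then released from the Insig proteins. When sterols are plentiful, liver X receptors switch on the exporters *Abca1* and *Abcg1*, and activated T cells are known to move toward synthesis and away from export as they grow.

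The first question was how the members differed by genotype among CD8 T cells of the tumor. Genes of the mevalonate and sterol steps were higher in the CD8-IFNγRKO library, led by *Fdps*, *Idi1*, *Cyp51* and *Sqle*, the fatty acid steps differed less, and the exporter *Abcg1* was lower. Of the 34 members, 26 reached 10 CPM in either tumor library, the minimum set for counting a ratio. Of these, 11 were higher by at least 0.5 on the log2 scale, the size used here to call a difference, beside 7.59% of all 7717 genes that reached the minimum. One member, *Abcg1*, was lower by as much, beside 5.12% of all genes. The median log2 ratio was 0.49 over these 26 members and 0.02 over all genes, and 23 of the 26 lay above 0. Because the list was chosen with this contrast known, nothing is read from these shares.

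**Figure D1:**
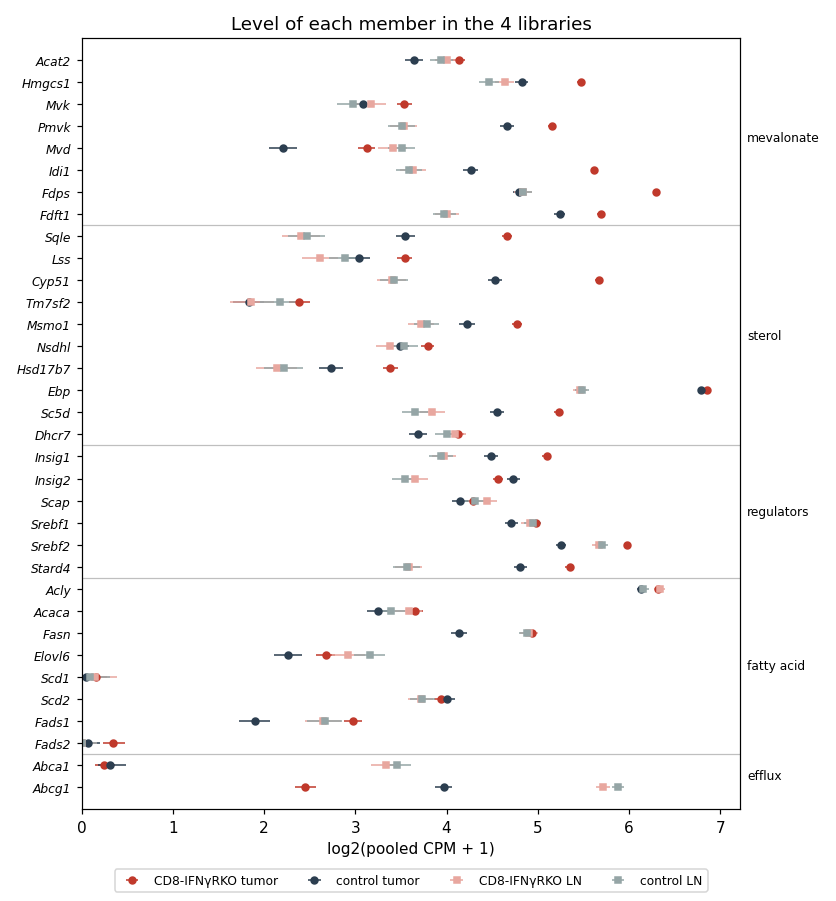
Level of each of the 34 members, as log2 of pooled CPM with 1 CPM added, in the CD8-IFNγRKO tumor (red circles), control tumor (dark circles), CD8-IFNγRKO LN (pink squares) and control LN (grey squares), grouped by step. Bars are exact 95% Poisson intervals. The CD8-IFNγRKO tumor held the highest level of 26 members, for 18 of them with an interval clear of the other libraries. The shares of all genes in these counts are not given, so nothing is read from them. The 2 LN libraries lay close together.

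Among the mevalonate genes, *Fdps*, which makes farnesyl diphosphate, the branch point toward sterols, prenyl groups and ubiquinone, showed the largest ratio. It stood at 77.6 CPM in the CD8-IFNγRKO tumor, 26.8 in the control tumor, 27.6 in the CD8-IFNγRKO LN and 27.7 in the control LN. The CD8-IFNγRKO tumor thus stood apart from 3 libraries that lay close together. The log2 ratio of *Fdps* in tumors was 1.50 (1.43 to 1.58), the 28th highest of the 7717 genes. *Idi1*, the isomerase just before *Fdps*, stood at 48.3 CPM in the CD8-IFNγRKO tumor, 18.2 in the control tumor, 11.4 in the CD8-IFNγRKO LN and 11.03 in the control LN, a log2 ratio of 1.36 (1.27 to 1.45) in tumors. Here the control tumor already lay above both LN libraries. *Hmgcs1*, which makes HMG-CoA, stood at 43.4, 27.3, 24.0 and 21.1 CPM in the same order, with a log2 ratio of 0.65 (0.57 to 0.73).

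The other 5 mevalonate genes were less far apart. *Fdft1*, which joins 2 farnesyl groups into squalene, stood at 50.8 CPM in the CD8-IFNγRKO tumor, 36.8 in the control tumor and 15.1 and 14.7 in the CD8-IFNγRKO and control LN, a log2 ratio of 0.45 (0.38 to 0.53) in tumors. *Pmvk*, *Acat2* and *Mvk*, the kinase of phosphomevalonate, the thiolase of the first step and mevalonate kinase, had log2 ratios of 0.49, 0.49 and 0.45, just under the size used to call a difference. *Mvd*, the decarboxylase that follows *Pmvk*, was under the minimum in both tumor libraries, at 7.73 and 3.61 CPM, and over it in the control LN alone. In LN *Mvd* stood at 9.64 CPM (CD8-IFNγRKO) and 10.4 CPM (control). With *Scap*, *Elovl6*, *Abca1* and *Abcg1* it made up the 5 members whose level was higher in both LN libraries than in either tumor library. The share of all genes in this order is not given, so nothing is read from the count. For *Scap* this order was within counting error, at 18.8 CPM (17.3 to 20.4) in the control LN and 18.6 CPM (17.8 to 19.5) in the CD8-IFNγRKO tumor. Summed over the 8 genes, the mevalonate steps stood at 290 CPM against 156 CPM in tumors, a log2 ratio of 0.89 (0.86 to 0.93).

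Among the sterol genes, *Cyp51*, the lanosterol demethylase, stood at 49.9 CPM in the CD8-IFNγRKO tumor, 22.1 in the control tumor, 9.53 in the CD8-IFNγRKO LN and 9.72 in the control LN. Its log2 ratio in tumors was 1.14 (1.06 to 1.23). *Sqle*, the squalene epoxidase that opens the sterol branch, stood at 24.4, 10.7, 4.30 and 4.54 CPM in the same order, with a log2 ratio of 1.12 (1.00 to 1.24). Both genes followed one order, with the CD8-IFNγRKO tumor highest, the control tumor in the middle and the LN libraries lowest. *Sc5d*, the desaturase near the end of the chain, and *Msmo1*, the methyl sterol oxidase, were higher by 0.68 (0.59 to 0.77) and 0.55 (0.45 to 0.65), at 36.5 against 22.4 CPM and 26.3 against 17.7 CPM.

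The rest of the sterol steps had smaller ratios than *Cyp51* and *Sqle*. *Ebp*, the sterol isomerase, stood at 114 CPM in the CD8-IFNγRKO tumor and 110 CPM in the control tumor, a log2 ratio of 0.06 (0.02 to 0.11), although it was at 43.1 and 43.9 CPM in LN. *Lss*, the lanosterol synthase between *Sqle* and *Cyp51*, had a ratio of 0.498 (0.35 to 0.65), *Dhcr7*, the last reductase, 0.44 (0.32 to 0.56), and *Nsdhl*, which removes methyl groups with *Msmo1*, 0.31 (0.18 to 0.44). *Hsd17b7* and *Tm7sf2*, both sterol reductases, stayed under the minimum, at 9.45 against 5.67 CPM and 4.22 against 2.55 CPM. *Ebp* gave 10730 of the 28605 sterol UMIs of the CD8-IFNγRKO tumor. The sum over the 10 genes, 305 against 220 CPM with a log2 ratio of 0.47 (0.44 to 0.50), lay below the ratio of *Cyp51* or *Sqle*.

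Of the regulators, *Srebf2* itself stood at 62.1 CPM in the CD8-IFNγRKO tumor, 37.2 in the control tumor, 49.998 in the CD8-IFNγRKO LN and 51.1 in the control LN. The control tumor held the lowest level of this gene, so on this scaling the genotypes stood on either side of LN. The log2 ratio in tumors was 0.72 (0.65 to 0.79). *Srebf1* was less far apart, at 30.6, 25.1, 29.2 and 29.8 CPM in the same order and a ratio of 0.27 (0.19 to 0.36). *Insig1*, which holds Scap back and is itself an SREBP target, was at 33.3 against 21.5 CPM in tumors (0.61, 0.52 to 0.70), whereas its relative *Insig2* was at 22.7 against 25.5 CPM (−0.17, −0.26 to −0.07). *Scap* differed by 0.15 (0.04 to 0.26), and *Stard4*, a carrier of cholesterol between membranes, by 0.54 (0.46 to 0.62), at 39.7 against 27.0 CPM.

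The fatty acid genes did not share one size of difference. *Fasn*, the synthase that builds palmitate, stood at 29.7 CPM in the CD8-IFNγRKO tumor, 16.6 in the control tumor, 29.0 in the CD8-IFNγRKO LN and 28.6 in the control LN, a log2 ratio of 0.80 (0.70 to 0.90) in tumors. The library that stood apart was the control tumor, which was low. *Acly*, which makes cytosolic acetyl-CoA for both branches, was at 78.6 against 69.4 CPM in tumors (0.18, 0.12 to 0.23). *Acaca*, acetyl-CoA carboxylase, differed by 0.41 (0.27 to 0.55) and *Scd2*, a stearoyl-CoA desaturase, by −0.06 (−0.18 to 0.05).

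The remaining fatty acid genes were under the minimum. *Fads1*, a desaturase of polyunsaturated fatty acids, was at 6.89 CPM (646 UMIs) in the CD8-IFNγRKO tumor and 2.72 CPM (160 UMIs) in the control tumor, and at 5.27 and 5.35 CPM in LN. *Elovl6*, an elongase, was at 5.39 against 3.797 CPM in tumors, and in LN at 6.59 and 7.92 CPM. Both showed their lowest level in the control tumor. *Scd1* and *Fads2*, the other desaturases, were nearly absent, with 2 to 11 UMIs of *Scd1* in each library and 25, 3, 0 and 0 UMIs of *Fads2*, where a limit of 3 UMIs for a count of 0 comes to 0.104 CPM in the CD8-IFNγRKO LN and 0.1002 CPM in the control LN. Summed over the 8 genes, the fatty acid steps stood at 147 against 116 CPM in tumors, a log2 ratio of 0.34 (0.30 to 0.38). *Acly* gave 7368 of the 13770 fatty acid UMIs of the CD8-IFNγRKO tumor and 4074 of the 6817 of the control tumor. Its ratio of 0.18 thus weighed most in this sum.

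Of the exporters, *Abcg1* ran the other way. *Abcg1* stood at 4.47 CPM (419 UMIs) in the CD8-IFNγRKO tumor, 14.6 (860 UMIs) in the control tumor, 51.6 in the CD8-IFNγRKO LN and 57.8 in the control LN. Its log2 ratio in tumors was −1.52 (−1.66 to −1.37). *Abca1* was nearly absent from both tumor libraries, at 0.181 and 0.238 CPM from 17 and 14 UMIs, against 9.08 and 9.99 CPM in LN, so that its tumor ratio could not be judged at this depth. *Abcg1* gave 419 of the 436 exporter UMIs of the CD8-IFNγRKO tumor and 860 of the 874 of the control tumor. Exporter sums in tumors thus rest on *Abcg1*.

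**Figure D2:**
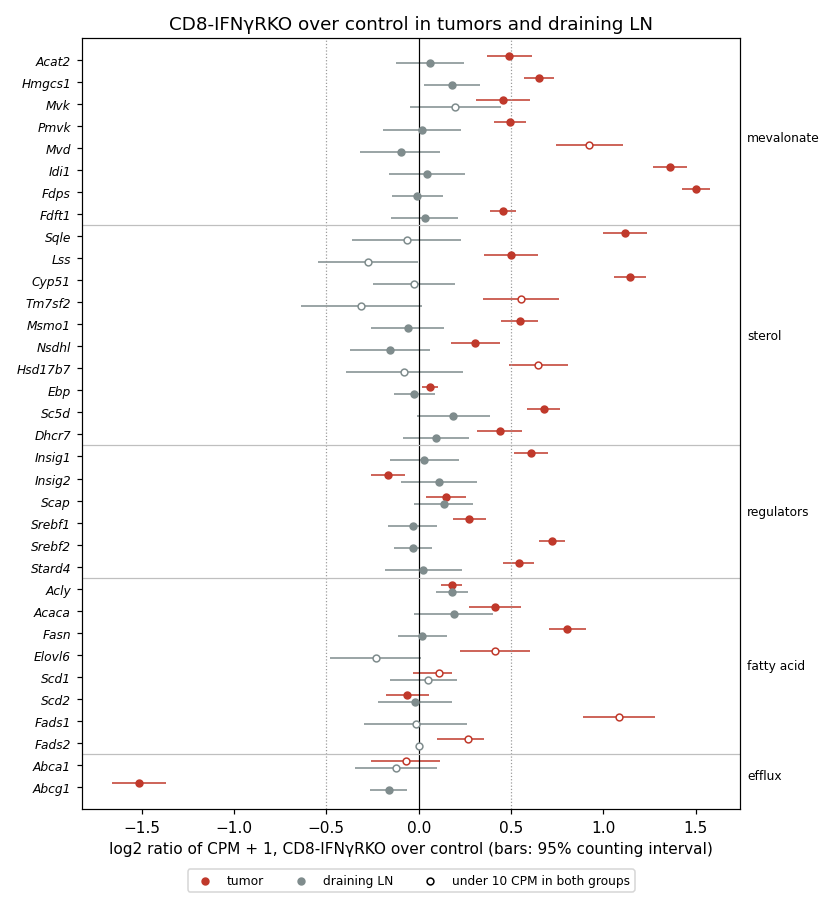
Log2 ratio of CD8-IFNγRKO over control for each member (pooled CPM, 1 CPM added) in tumors (red) and in draining LN (grey), with 95% counting intervals; dotted lines mark 0.5 either way and open points are genes under 10 CPM in both libraries. The tumor points spread from −1.52 to 1.50 and the LN points lie about 0.

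Other cells and the state of the cells moved with this contrast. Cells with UMIs of at least 3 myeloid markers had been removed (16 and 35 in the CD8-IFNγRKO and control tumor). The 18 myeloid markers then summed to 18.5 CPM in the CD8-IFNγRKO tumor and 24.9 CPM in the control tumor, with 2 and 0 of them at 0, and the 6 melanoma markers to 2.72 and 3.90 CPM, with none at 0. Both lists were lower in the CD8-IFNγRKO tumor. The 6 CD8 T cell markers summed to 6135 and 8140 CPM and the 4 B cell markers to 2.10 and 0.426 CPM, with 1 and 2 of the latter at 0. The 10 cycling markers summed to 1821 and 1169 CPM, and the share of cells with a UMI of *Mki67*, a gene of dividing cells, was 45.9% and 26.1%. The part of these lists in the result was not tested. The *Mki67* classes compared further on sort cells by 1 gene and do not test the part of dividing cells.

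For 26 of the 34 members a RefSeq promoter window, from 250 bases before to 50 bases after the annotated start (build GRCm38.p6), was at hand. Both strands of these windows were searched for the sterol regulatory element written TCACNCCAC, the NF-Y box CCAAT, the E-box CACGTG and the Sp1 box GGGCGG, and no match of one shared a base with a match of another. The NF-Y box was in at least 1 window of 20 of the 26 members (76.9%) and of 41.1% of 27025 genes. It was in all 8 of the members with a window that were higher in the CD8-IFNγRKO tumor and in 12 of the other 18. The Sp1 box was in 22 of 26 members against 38.2% of genes, the E-box in 6 of 26 against 8.09% and the sterol element, in this strict spelling, in 1 of 26 against 1.44%. These are matches of letters and not sites shown to be bound. The shares of genes were not taken over genes expressed in these cells alone, so nothing is read from them about the members.

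The windows of 4 genes are shown: *Hmgcs1*, which held the sterol element, *Idi1* and *Cyp51*, which had the largest tumor ratios among members with a window, and *Srebf2*, the gene of SREBP2. They are written from 5′ to 3′ on the strand of the gene, and capitals mark the sterol element and the NF-Y box (CCAAT, or ATTGG where it lies on the other strand). *Hmgcs1* is at chr13:119690101-119690400 on the plus strand, *Idi1* at chr13:8885356-8885655 on the plus strand, *Cyp51* at chr5:4104648-4104947 on the minus strand and *Srebf2* at chr15:82147019-82147318 on the plus strand.
Hmgcs1: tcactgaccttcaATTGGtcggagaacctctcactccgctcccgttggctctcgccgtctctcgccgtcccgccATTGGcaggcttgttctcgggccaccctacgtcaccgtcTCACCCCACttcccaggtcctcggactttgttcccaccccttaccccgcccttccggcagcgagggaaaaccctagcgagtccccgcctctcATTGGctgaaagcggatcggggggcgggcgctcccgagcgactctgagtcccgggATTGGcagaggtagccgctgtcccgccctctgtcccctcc
Idi1: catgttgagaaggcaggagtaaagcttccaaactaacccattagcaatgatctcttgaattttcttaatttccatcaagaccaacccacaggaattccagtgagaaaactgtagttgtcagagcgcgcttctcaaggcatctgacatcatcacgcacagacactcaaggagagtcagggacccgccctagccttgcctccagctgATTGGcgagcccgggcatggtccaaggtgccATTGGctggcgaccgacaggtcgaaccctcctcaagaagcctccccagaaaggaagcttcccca
Cyp51: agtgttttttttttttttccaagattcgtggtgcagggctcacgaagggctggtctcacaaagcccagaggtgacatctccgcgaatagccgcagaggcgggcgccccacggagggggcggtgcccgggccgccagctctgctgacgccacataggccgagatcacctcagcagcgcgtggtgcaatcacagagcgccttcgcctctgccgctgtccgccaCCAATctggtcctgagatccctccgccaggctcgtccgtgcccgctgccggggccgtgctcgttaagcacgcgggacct
Srebf2: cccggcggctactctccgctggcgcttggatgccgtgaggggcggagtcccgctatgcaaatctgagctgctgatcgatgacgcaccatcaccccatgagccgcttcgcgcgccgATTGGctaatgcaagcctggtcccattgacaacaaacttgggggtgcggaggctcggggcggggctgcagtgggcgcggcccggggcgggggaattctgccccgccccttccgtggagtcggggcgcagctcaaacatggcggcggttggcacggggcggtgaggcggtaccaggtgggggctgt
The window of *Hmgcs1* held the one sterol element found, TCACCCCAC, beginning 137 bases before the start, and 4 NF-Y boxes. *Idi1* held NF-Y boxes that began 45 and 14 bases before the start, *Cyp51* one at 29 bases and *Srebf2* one at 135 bases before it.

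In the draining LN the same contrast gave nothing of this size. No member was higher or lower by 0.5 among the 23 that reached the minimum, beside 0.241% of all 7472 genes higher and 0.428% lower. The median log2 ratio was 0.02 over these members and 0.03 over all genes. For 20 of the 23 the counting interval held 0, while *Hmgcs1* (0.18, 0.03 to 0.33) and *Acly* (0.18, 0.10 to 0.27) lay above it and *Abcg1* (−0.16, −0.26 to −0.06) below. No share of all genes with intervals that held 0 is given, so nothing is read from this count.

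The sums by step in LN were close to each other as well. The mevalonate steps stood at 121 against 117 CPM (0.06, −0.01 to 0.13), the sterol steps at 119 against 122 CPM (−0.03, −0.10 to 0.04) and the fatty acid steps at 144 against 134 CPM (0.10, 0.04 to 0.17). The interval of *Fdps* in LN, −0.14 to 0.13, rests on 795 and 829 UMIs and does not reach the ratio seen in tumors. Each genotype contrast rests on its own pair of libraries, and the difference between tissues could not be tested without replicate libraries.

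Tumor and LN were then compared within each genotype, with tumor and LN cells from 3 mice of each genotype. In control cells 4 of 7 sterol and 3 of 7 mevalonate genes over the minimum were higher in the tumor by 0.5, and *Abcg1*, *Fasn* and *Mvd* were lower. Of 24 control members over the minimum, 10 were higher by 0.5 and 3 lower, beside 28.9% and 25.1% of all 8216 genes. In CD8-IFNγRKO cells 14 of 26 were higher and 1, *Abcg1*, was lower, beside 30.5% and 27% of all 8284 genes. These splits depended on the scaling: with T cell receptor, heat shock, ribosomal protein and mitochondrial genes left out of the library size, the median of all genes moved from 0.04 to −0.27 in control cells and from 0.05 to −0.24 in CD8-IFNγRKO cells. The members then split into 8 higher and 9 lower in control cells and 15 higher and 3 lower in CD8-IFNγRKO cells. The shares of all genes past 0.5 under this scaling are not given here, so nothing is read from these counts.

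Some members were high in the tumor in both genotypes. *Ebp* had log2 ratios of tumor over LN of 1.30 in control and 1.39 in CD8-IFNγRKO cells, *Fdft1* 1.26 and 1.69, *Pmvk* 1.15 and 1.63, *Stard4* 1.24 and 1.76, and *Insig2*, the one regulator lower in the CD8-IFNγRKO tumor than in the control tumor, 1.18 and 0.91. Others lay further above LN in CD8-IFNγRKO than in control cells. *Fdps*, near LN in the control tumor, had ratios of −0.05 in control and 1.46 in CD8-IFNγRKO cells, *Idi1* 0.68 and 1.99, *Cyp51* 1.11 and 2.27, *Sqle* 1.08 and 2.26. On the scaling to all genes, a further set was below LN in the control tumor but not in the CD8-IFNγRKO tumor, namely *Fasn* (−0.75 and 0.03), *Srebf2* (−0.45 and 0.31), *Dhcr7* (−0.32 and 0.03) and *Acat2* (−0.30 and 0.13). The other scaling lowered the median of all genes, as given above. Ratios of single genes under it are not given, so the place of this set about LN in CD8-IFNγRKO cells depends on the scaling.

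By step, the mevalonate sum was higher in the tumor by 0.42 (0.36 to 0.48) in control and 1.26 (1.21 to 1.31) in CD8-IFNγRKO cells, and the sterol sum by 0.85 (0.80 to 0.91) and 1.36 (1.30 to 1.41). The fatty acid sum was at −0.21 (−0.26 to −0.15) and 0.03 (−0.02 to 0.08). The exporters were far lower in the tumor, at −2.19 (−2.30 to −2.07) and −3.70 (−3.86 to −3.55). The mevalonate, sterol and exporter sums lay further from 0 in CD8-IFNγRKO than in control cells, a difference between single libraries that could not be tested. These sums are on the scaling to all genes, and their intervals do not cover the choice of scaling.

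**Figure D3:**
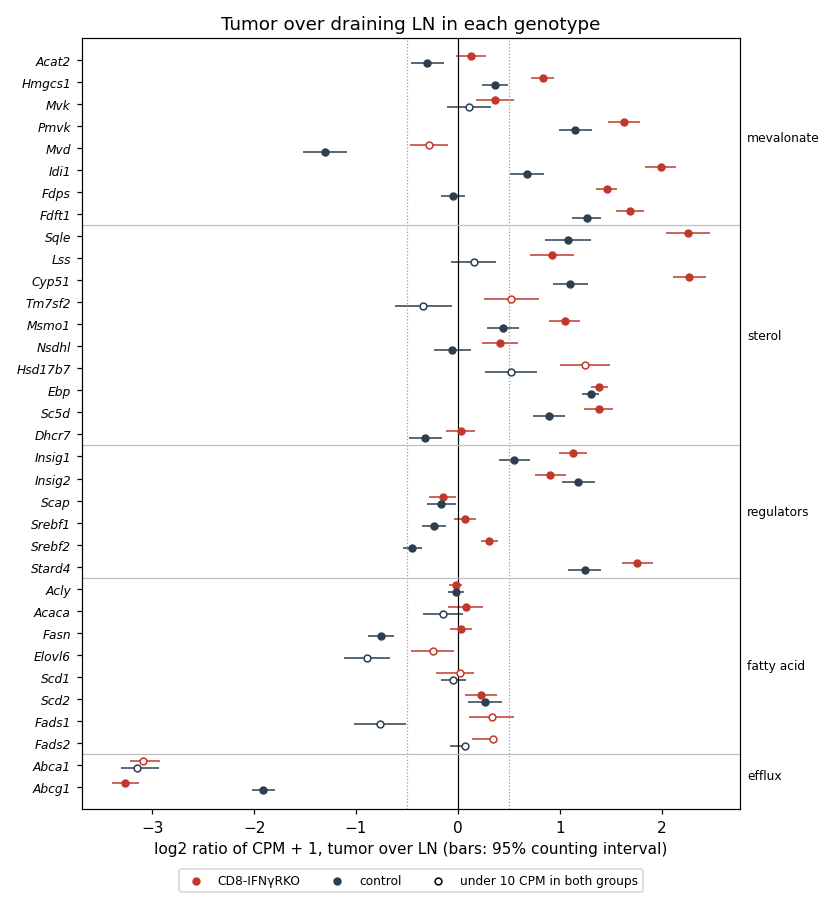
Log2 ratio of tumor over draining LN for each member (pooled CPM, 1 CPM added) in CD8-IFNγRKO (red) and control (dark) cells, with 95% counting intervals; open points are genes under 10 CPM in both tissues. *Cyp51* and *Sqle* lie furthest right and *Abcg1* and *Abca1* furthest left in CD8-IFNγRKO cells.

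Since more cells of the CD8-IFNγRKO tumor held *Mki67* UMIs, the genotypes were compared within each class of cells. Inside both classes the differences were close to those in all cells. Cells with at least 1 *Mki67* UMI numbered 3958 in the CD8-IFNγRKO tumor and 1847 in the control tumor, with medians of 13864 and 12443 UMIs per cell, and cells without numbered 4662 and 5221, with medians of 6291.5 and 5348. A cell with more UMIs has more chance of showing *Mki67*, so a cell without such a UMI may still be dividing. After thinning each cell to 1600 UMIs, 17.9% (17.1 to 18.8) and 9.85% (9.13 to 10.6) of cells still held an *Mki67* UMI, leaving out 278 and 701 shallower cells, against 0.299% and 0.281% of LN cells.

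In cells with *Mki67* UMIs, 10 of 26 members were higher in the CD8-IFNγRKO tumor and 1 was lower, beside 2.92% and 4.28% of all 7661 genes. In cells without, 10 of 24 were higher and 1 lower, beside 8.13% and 4.7% of all 7659 genes. The lower gene was *Abcg1* both times, at −1.50 (cells with *Mki67*) and −1.30 (cells without). *Fdps* had ratios of 1.36 (1.26 to 1.47) and 1.51 (1.39 to 1.62), from 84.9 against 32.4 CPM and 65.5 against 22.4 CPM. *Idi1* had 1.11 and 1.49, *Cyp51* 1.00 and 1.20, *Sqle* 1.03 and 1.12, *Fasn* 0.68 and 0.86, and *Srebf2* 0.78 and 0.67.

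The sums told the same by step. The mevalonate steps differed by 0.81 (0.76 to 0.86) in cells with and 0.87 (0.82 to 0.93) in cells without *Mki67* UMIs, the sterol steps by 0.45 (0.41 to 0.49) and 0.43 (0.38 to 0.47), and the fatty acid steps by 0.32 (0.26 to 0.38) and 0.33 (0.27 to 0.39). These values were near those of all cells, 0.89, 0.47 and 0.34.

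**Figure D4:**
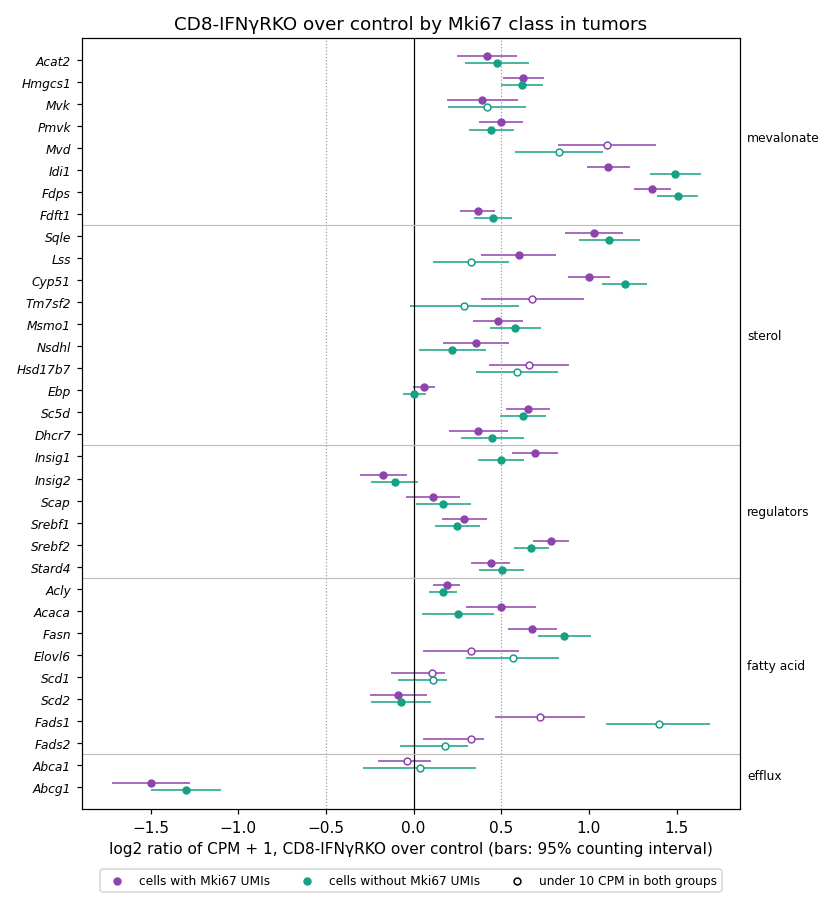
Log2 ratio of CD8-IFNγRKO over control tumor for each member (pooled CPM, 1 CPM added) in cells with (purple) and without (green) *Mki67* UMIs, with 95% counting intervals; open points are genes under 10 CPM in both libraries of that class. The 2 classes lie close together for most members, with *Idi1*, *Tm7sf2* and *Fads1* among those further apart.

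Within one library, the ratios of cells with over cells without *Mki67* UMIs were mostly small and above 0. In the control tumor 17 of 23 members over the minimum lay above 0, with a median log2 ratio of 0.13, beside −0.01 over all genes. In the CD8-IFNγRKO tumor 24 of 25 did, with a median of 0.17 beside −0.02 over all genes. No share of all genes above 0 is given, so nothing is read from these counts. In the control tumor 2 of 23 members, *Idi1* (0.75) and *Fdps* (0.51), were higher in cells with *Mki67* UMIs and *Abcg1* (−0.61) was lower, beside 10.5% and 3.98% of all 7710 genes. In the CD8-IFNγRKO tumor none of 25 was higher or lower by 0.5, beside 7.72% and 3.62% of all 7706 genes. The mevalonate sum was higher in cells with *Mki67* UMIs by 0.32 (0.26 to 0.38) in the control and 0.26 (0.22 to 0.30) in the CD8-IFNγRKO tumor, and the sterol sum by 0.16 (0.11 to 0.21) and 0.18 (0.15 to 0.22).

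The cells of the 2 tumor libraries differed in depth, so the 18 mevalonate and sterol genes were also summed in cells of like UMI count. This sum was higher in the CD8-IFNγRKO tumor in each of the 5 bins. In cells of 1000 to 2000, 2000 to 4000 and 4000 to 8000 UMIs the log2 ratios were 0.41 (0.18 to 0.64), 0.43 (0.31 to 0.55) and 0.42 (0.36 to 0.47). In cells of 8000 to 16000 UMIs and of 16000 or more they were 0.63 (0.59 to 0.66) and 0.68 (0.64 to 0.71). The sum stood at 511, 411, 452, 597 and 647 CPM from the shallowest to the deepest bin in the CD8-IFNγRKO tumor and at 385, 305, 338, 387 and 405 CPM in the control tumor. Taken apart in the same order of bins, the mevalonate steps had log2 ratios of 0.74, 0.62, 0.63, 0.83 and 0.89. The sterol steps had 0.16 (−0.14 to 0.46), 0.29, 0.26, 0.46 and 0.49. The fatty acid steps had 0.20 (−0.22 to 0.63), 0.34, 0.15, 0.33 and 0.39. In the shallowest bin the intervals of the sterol and fatty acid steps thus held 0. The exporters stood at 17.6, 19.3, 9.84, 3.74 and 2.62 CPM in the CD8-IFNγRKO tumor and at 15.5, 33.7, 19.7, 13.6 and 9.14 CPM in the control tumor. In the shallowest bin, with 18 and 9 exporter UMIs, their log2 ratio was 0.19 (−1.04 to 1.53), and in the other 4 bins it was below 0.

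**Figure D5:**
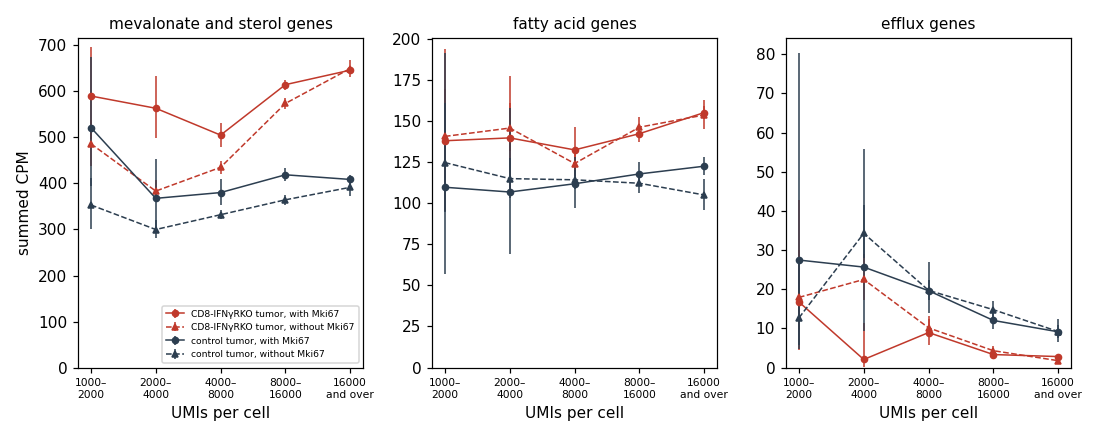
Summed CPM of the mevalonate and sterol, fatty acid and efflux genes (panels) in tumor cells grouped by UMIs per cell, for CD8-IFNγRKO (red) and control (dark) cells with (circles, solid) and without (triangles, dashed) *Mki67* UMIs. Bars are exact 95% Poisson intervals; for the mevalonate and sterol genes both red lines lie above the control line of the same class in each bin, and the intervals are wide in the shallowest bin.

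Counted per cell after thinning to 1600 UMIs, the mevalonate and sterol genes gave a mean of 0.863 UMIs (SD 1.02 over 8342 cells) in the CD8-IFNγRKO tumor and 0.573 (SD 0.789 over 6367 cells) in the control tumor, against 0.397 and 0.387 in the CD8-IFNγRKO and control LN. The median cell held 1 UMI of these genes in the CD8-IFNγRKO tumor and 0 in the other 3 libraries. Cells with 5 or more such UMIs made up 0.563% and 0.110% of cells in the CD8-IFNγRKO and control tumor.

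Cells with a UMI of *Tcf7*, a gene of stem-like T cells, numbered 834 in the CD8-IFNγRKO and 371 in the control tumor. Their mevalonate and sterol sum was lower than in the other cells by −0.61 (−0.67 to −0.55) and −0.20 (−0.30 to −0.10) on the log2 scale, and their exporter sum was higher by 2.28 (1.94 to 2.60) and 1.07 (0.72 to 1.40), while their median depth was 4516 against 9892.5 UMIs and 4550 against 6370 UMIs.

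Genes of neighbouring pathways, in lists written down with earlier results known, differed less between the tumor libraries. Of the 6 tested genes that process or degrade SREBP and its partners none was called, with *Rnf139*, a ubiquitin ligase, lowest at −0.24, and *Vcp* and *Nploc4*, parts of the extraction machinery, highest at 0.06 and 0.03. Of 11 genes that use isoprenoids none was called either. *Pdss1* and *Coq2*, of ubiquinone synthesis, were highest at 0.28 and 0.25 and *Ggps1* and *Fnta*, of protein prenylation, lowest at −0.16 and −0.13. Over all genes, 7.59% were called higher and 5.12% lower, so nothing is read from the count in this short list. *Fdft1*, which uses the product of *Fdps*, was counted with the mevalonate genes.

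Of 8 genes of sterol storage, transport and liver X receptor response none was called, and 7 of the 8 lay below 0. *Npc2*, which carries cholesterol out of lysosomes, was lowest at −0.41 (364 against 486 CPM) and *Nceh1*, a cholesterol ester hydrolase, next at −0.29, while *Nr1h2*, a liver X receptor, was at 0.01 and *Osbp*, an oxysterol-binding protein, at −0.01. Of 13 genes of fatty acid supply and remodelling 2 were higher. *Fabp5*, a carrier of fatty acids in the cytosol, stood at 84.2 CPM in the CD8-IFNγRKO tumor, 37.8 in the control tumor, 7.11 in the CD8-IFNγRKO LN and 10.1 in the control LN, a log2 ratio of 1.13 (1.07 to 1.20) in tumors. *Mecr*, of mitochondrial fatty acid synthesis, was at 0.54, and *Mlycd* and *Hacd2* were lowest at −0.12 and −0.09.

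Fatty acid oxidation had no called gene among 10. *Etfb* and *Etfa*, which pass electrons to the respiratory chain, were highest at 0.34 and 0.21, and *Cpt1a* and *Slc25a20*, which bring fatty acids into mitochondria, lowest at −0.36 and −0.28. Glycerolipid synthesis had none among 8, from *Lpin1* (0.42) and *Agpat5* (0.39) down to *Lpin2* (−0.07) and *Dgat1* (−0.06). The genes called outside the member list were therefore 2 of 56, beside the 7.59% of all genes given above.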

How the data were processed

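Cells of 4 droplet libraries (5′ chemistry) were used, 1 library of 3 pooled mice for each tissue and genotype. The authors mapped reads with Cell Ranger 6.0.0 to the mouse genome mm10 and deposited the raw UMI counts of each gene in each barcode, not normalized. Deposited contig tables of T cell receptor UMI counts served only to leave out the 3 largest clones in one alternative.

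The study's filters were followed: a barcode needed between 200 and 6000 detected genes, a mitochondrial share of UMIs no higher than 3%, no single gene holding over 20% of its UMIs, and a UMI of *Cd2*, of *Cd8a* and of *Cd8b1*. Cells with UMIs of at least 3 of 18 myeloid markers were removed. No doublet caller was run here; one alternative left out the 8% of cells with most UMIs. Of 12214, 11369, 11298 and 12979 barcodes, 8620, 7068, 6731 and 6640 cells remained in the CD8-IFNγRKO tumor, control tumor, CD8-IFNγRKO LN and control LN.

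Counts were pooled per library and scaled to CPM. Ratios of single genes are on the log2 scale with 1 CPM added, which understates the ratio of low genes, and sums of steps have none added. Intervals at 95% (Poisson, conditional binomial, Clopper-Pearson) cover counting error only. A gene reaching 10 CPM in either group was counted as called past a log2 ratio of 0.5. With 1 library per group no p-value was computed. Precision follows the number of UMIs. All members were named, and of the other lists the 2 highest and 2 lowest log2 ratios in tumors, except 1 gene that is not reported here. The members and lists were chosen with earlier results of these data known. The tools were matplotlib 3.10.9, pandas 2.3.3, scipy 1.17.1 and numpy 2.4.6 under Python 3.11.15, and the calculation was tested on simulated data. Alternatives changed the pseudocount, minimum, fold, scaling, weighting of cells, depth, cell filters, clones and the *Mki67* class.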

Additional observations from a re-analysis of the deposited data

How the results depend on the processing

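In the tumor genotype contrast the mevalonate, sterol and fatty acid sums and the 12 called members kept their direction under each alternative run. In tumors the mevalonate, sterol and fatty acid ratios of CD8-IFNγRKO over control (0.89, 0.47 and 0.34) became 0.83, 0.42 and 0.28 with cells weighted equally, 0.86, 0.38 and 0.26 after thinning to 1600 UMIs and 0.78, 0.37 and 0.26 in cells of 4000 to 12000 UMIs. Without the 3 largest clones the first 2 were 0.78 and 0.39, and with *Mki67* classes weighted equally (chosen after seeing the data) 0.84 and 0.44. The 12 members called in tumors became 2 at a minimum of 50 CPM and 5 at a log2 ratio of 1. Only *Fdps*, *Fdft1*, *Ebp*, *Srebf2* and *Acly* reached 50 CPM in either tumor library. Counts at 50 CPM therefore rest on fewer members, and no share of all genes is given beside the counts of this section. At 50 CPM the tumor over LN counts went from 13 to 2 in control and from 15 to 4 in CD8-IFNγRKO cells, and the 11 called became 4 in cells with and 2 in cells without *Mki67* UMIs. Each of these 11 became 5 at a log2 ratio of 1. Between *Mki67* classes the control count of 3 became 1 with 5 CPM added, 0 at 50 CPM, 5 with cells weighted equally, 1 with the class from thinned cells and 0 at a log2 ratio of 1. The CD8-IFNγRKO count of 0 became 1 at a minimum of 1 CPM, 3 with cells weighted equally and 2 after thinning. Called members ranged over alternatives from 1.31 to 1.54 for *Fdps*, 1.14 to 1.54 for *Idi1* and −1.69 to −1.05 for *Abcg1*, and *Insig1*, *Msmo1*, *Sc5d* and *Stard4* reached 0.49, 0.42, 0.42 and 0.37 at the lowest. The causes were not tested. No paired analysis was possible because each group was 1 library. Depth limits *Abca1*, *Scd1* and *Fads2* most.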

Other observations

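Whether the synthesis genes were found together in single cells was described by sorting tumor cells, thinned to 1600 UMIs, by an *Fdps* UMI. In the CD8-IFNγRKO tumor 810 cells held one and 7532 did not. The other 7 mevalonate genes summed to 258 CPM in cells with and 185 CPM in cells without it, a log2 ratio of 0.48 (0.31 to 0.64), the sterol genes to 339 and 275 CPM (0.30, 0.16 to 0.45) and the fatty acid genes to 171 and 137 CPM (0.31, 0.10 to 0.51). The regulators stood at 203 CPM in both (0.00, −0.19 to 0.18). By gene, the intervals of *Idi1* (0.77, 0.42 to 1.10), *Cyp51* (0.67, 0.32 to 1.00) and *Scd2* (0.91, 0.32 to 1.47) lay above 0. So did those of *Hmgcs1* (0.50, 0.12 to 0.86), *Msmo1* (0.53, 0.03 to 0.99) and *Nsdhl* (0.71, 0.04 to 1.33). *Ebp*, at 105 and 109 CPM, gave −0.05 (−0.32 to 0.21). In the control tumor, with 214 and 6153 cells, the mevalonate genes gave 0.49 (0.08 to 0.87), the sterol genes 0.35 (0.03 to 0.65) and the fatty acid genes 0.06 (−0.42 to 0.50). By gene there, *Idi1* (1.47, 0.52 to 2.29) and *Sqle* (1.40, 0.30 to 2.33) had intervals above 0. They rest on 13 and 10 UMIs in the cells with an *Fdps* UMI. The intervals of *Cyp51*, *Scd2*, *Hmgcs1*, *Msmo1* and *Nsdhl*, from 8, 7, 13, 11 and 6 such UMIs, held 0. With so few UMIs the tumor libraries cannot be set against each other by gene. No share of all genes with intervals above 0 is given. The cells of one library are not replicates, and these intervals cover counting error only.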
